A study of Mus musculus with 9 samples.

Results

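The nuclear genes of the mitochondrial respiratory chain were followed in neutrophils from the skin and the skin lesions of carcinogen-treated mice. All probes whose gene name on the array begins with Nduf, Uqcr, Atp5 or Cox4 to Cox8, together with those of Sdha, Sdhb, Sdhc, Sdhd, Cycs and Cyc1, were taken. They comprised 138 of 55681 probes and, with the median over the probes of a gene as its value, 92 of 34797 gene names. Of these, 36 encode subunits of complex I, 4 its assembly factors, 4 complex II, 9 complex III, 1 cytochrome c, 20 complex IV and 15 complex V. The remaining 3, Cox4nb, Atp5s and Atp5sl, share the prefix only. The reference table names Cox4nb Emc8, a subunit of a membrane insertion complex of the endoplasmic reticulum.

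The FVB/N mice of all groups received the carcinogen DMBA at the age of 6 weeks and again at 13 weeks, and the tumor promoter PMA from week 1 to week 18 to 20 (the labels do not say whether this second count is of age or of treatment), so that no group was untreated. Gr-1bright neutrophils were sorted from skin around papillomas (papilloma skin, 2 arrays), skin around carcinomas (tumor skin, 2 arrays), papillomas (3 arrays) and carcinomas (tumor, 2 arrays), and each array of one color held RNA pooled from several mice. Tests across arrays therefore measured the spread between pools. In such bulk samples, fewer cells of a type and less RNA per cell cannot be told apart.

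Complexes I and II feed electrons from NADH and succinate into the chain, complex III passes them to cytochrome c, and complex IV hands them to oxygen. The protons pumped on the way drive ATP synthesis by complex V. Mature neutrophils are known to hold few mitochondria and to make most of their ATP by glycolysis, and several respiratory genes exist as pairs of isoforms, one of which is used mainly in muscle or in hypoxic cells.

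Values were log2 values from the table that the authors deposited. A few facts on that table precede the results. By rank correlation over probes, 5 of its 9 columns matched their own scanner file best, at a rho of 0.931 to 0.980. The column papilloma skin 1 matched its own file at 0.588 and that of tumor 2 at 0.924, the column tumor 1 matched its own file at 0.827 and that of tumor 2 at 0.947, and the columns papilloma 2 and papilloma 3 each matched the file of the other best. Results are therefore also given without papilloma skin 1 and tumor 1. That leaves only papilloma skin 2 and tumor 2 in their groups. The spread within these groups is then not measured, and the tests use that of tumor skin and papilloma. The 9 arrays lay on 3 slides, slide 1 with the first array of each group, slide 2 with papilloma skin 2, papilloma 2 and tumor 2, and slide 3 with tumor skin 2 and papilloma 3. The scanner signals of papilloma skin 1, tumor skin 1 and tumor 1 had a compressed range, with spike-in slopes of 0.678, 0.876 and 0.894 against 1.04 to 1.06 on the other 6 arrays. All 15 neutrophil markers were well above background on all 9 arrays, and 6 of them passed as lower in tumor and 6 in papilloma, each against its own skin. Well above background on all arrays were also 12 of 16 keratinocyte and 13 of 13 mitochondrially encoded genes, 5 of 14 skeletal muscle, 3 of 11 smooth muscle and pericyte and 2 of 7 endothelial genes.

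The respiratory chain was readily measured. Of the 92 genes, 86 were well above background on all 9 arrays by at least 1 probe and 63 had a mean log2 value of at least 10. On papilloma skin 1, tumor skin 1 and tumor 1, 95.04%, 90.74% and 94.35% of all probes were well above background. This was 44.25% to 64.23% on the other arrays, so detection says little on those with a compressed range. Most of the 92 genes differed little between lesion and skin. In tumor versus tumor skin, 78 of 92 genes (84.8%) differed by less than 0.5 on the log2 scale, against 73.8% of all genes and 60.5% of the 4341 genes with a mean value of at least 10. For papilloma against its skin, these shares were 81.5%, 81.4% and 65.7%.

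At an adjusted p of at most 0.05 (limma, adjusted by Benjamini-Hochberg over all genes), 3 of the 92 genes rose and 1 fell in tumor versus tumor skin. That was 4.35% of the members, where 10.4% of all 34797 genes passed. When papilloma was set against papilloma skin, 4 rose and 7 fell, 11.96% of the members beside 7.56% of all genes. By direction, 4.8% of all genes were higher and 2.75% lower in this comparison, and 6.17% and 4.22% in tumor versus tumor skin. Brighter genes passed more often. Of the 4341 genes with a mean value of at least 10, 508 were higher and 226 lower in papilloma versus papilloma skin. In tumor versus tumor skin, 478 of them were higher and 376 lower. In a fit of the 18817 genes with a mean of at least 6, 2429 passed for papilloma and 3256 for tumor. Of its 88 members, 4 were higher and 7 lower for papilloma and 4 higher and 1 lower for tumor. No member passed in tumor versus papilloma, where 0.983% of all genes did, and 1 fell in tumor skin versus papilloma skin, where 0.98% of all genes passed and 0.399% fell. At the threshold for differentially expressed genes of the study, which adds a log2 difference of at least 1 and a mean value of at least 6, Ndufa4l2, Ndufaf1 and Cycs remained in tumor versus tumor skin, where 4.36% of all genes passed. Ndufa4l2 alone remained in papilloma versus papilloma skin, where 3.6% of all genes did. Counted by arrays alone, 28 members lay higher on both tumor arrays than on both tumor skin arrays and 21 lower, 30.4% and 22.8%, beside 26.2% of all genes in either direction. For papilloma these were 10 higher and 26 lower, 10.9% and 28.3%, beside 19.9% and 18.4% of all genes.

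**Figure D1:**
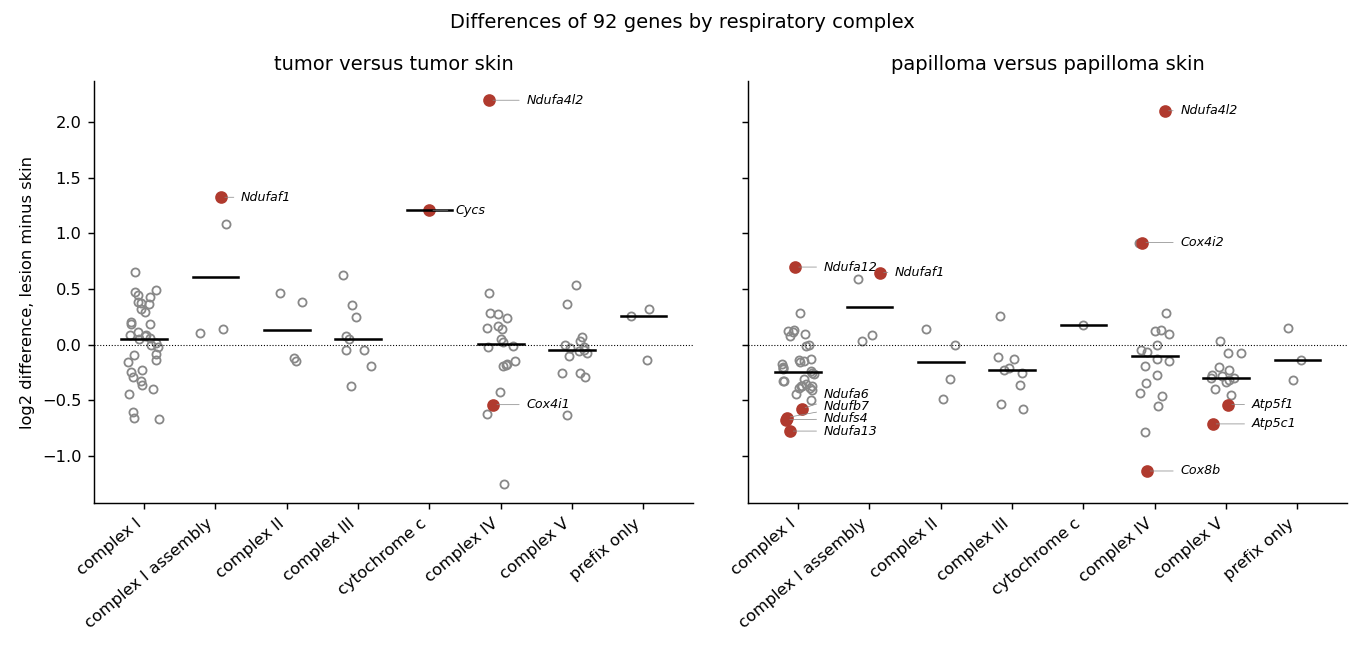
Log2 difference between lesion and skin for each of the 92 genes (vertical axis), grouped by respiratory complex (horizontal axis), for tumor versus tumor skin on the left and papilloma versus papilloma skin on the right. Open points did not pass, red points had an adjusted p of at most 0.05 in limma, and black bars are medians. The 4 genes that passed on the left and the 11 on the right are named, and Ndufa4l2 is the highest point in both.

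Ndufa4l2 encodes a paralog of the complex IV subunit Ndufa4 and is known as a gene induced by hypoxia whose product lowers complex I activity. Its log2 values were 8.22 and 7.01 in papilloma skin, 6.502 and 6.46 in tumor skin, 9.74, 9.54 and 9.87 in papilloma and 8.04 and 9.32 in tumor. Every lesion array lay above the skin arrays of its own stage, whereas tumor 1 lay below papilloma skin 1. The gene was 4.60-fold higher in tumor than in tumor skin (log2 difference 2.20 ± 0.46, SE, limma adjusted p = 0.024) and 4.30-fold higher in papilloma than in papilloma skin (2.11 ± 0.42, SE, limma adjusted p = 0.022). Without papilloma skin 1 and tumor 1, the log2 differences were 2.84 and 2.71 (limma adjusted p = 0.011 and 0.010). Its probe was not well above background on tumor skin 2, and the difference from tumor skin rests on that array and on tumor skin 1 with its compressed range.

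The paralog Ndufa4 did not pass. Its values were 11.18 and 10.35 in papilloma skin, 9.83 and 10.43 in tumor skin, 10.54, 9.88 and 10.20 in papilloma and 10.21 and 10.98 in tumor. The groups overlapped in both lesion comparisons, with log2 differences of 0.46 ± 0.38 (SE, limma adjusted p = 0.48) for tumor and -0.55 ± 0.34 (SE, limma adjusted p = 0.41) for papilloma. The probes of the 2 paralogs, of 60 bases each, share no run longer than 7 bases, so they are shown here by their first 30 bases (mm9, Ndufa4l2 chr10:126954149-126954208 on the plus strand, Ndufa4 chr6:11850423-11850482 on the minus strand), with no base set in capitals.
Ndufa4l2: tgtccctggggatcaaacagaagcagccgt
Ndufa4: ccgcacaattttccacttaagcaggaaata

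Subunit 4 of complex IV also comes in a pair of isoforms. Cox4i1 is the form of most tissues, and Cox4i2 is known from lung and from vascular smooth muscle cells and pericytes. Cox4i2 had log2 values of 7.68 and 8.02 in papilloma skin, 8.08 and 8.68 in tumor skin, 8.9995, 8.60 and 8.71 in papilloma and 8.02 and 7.88 in tumor. All papilloma arrays were above papilloma skin, and both tumor arrays were below tumor skin. It was 1.89-fold higher in papilloma than in papilloma skin (log2 difference 0.92 ± 0.21, SE, limma adjusted p = 0.040), and without papilloma skin 1 and tumor 1 the difference was 0.75 (limma adjusted p = 0.24). The tumor difference was -0.43 ± 0.23 (SE, limma adjusted p = 0.28). Between both lesions it was -0.82, tumor minus papilloma (limma adjusted p = 0.14).

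Cox4i1 had values of 14.24 and 14.08 in papilloma skin, 14.08 and 14.24 in tumor skin, 13.79, 13.59 and 13.78 in papilloma and 13.60 and 13.63 in tumor. All 5 lesion arrays were lower than all 4 skin arrays. It fell by 0.54 ± 0.14 in tumor versus tumor skin (log2, SE, limma adjusted p = 0.047), and the papilloma difference of -0.44 ± 0.13 did not pass (SE, limma adjusted p = 0.085). Without papilloma skin 1 and tumor 1 the tumor difference was -0.53 (limma adjusted p = 0.14). The call was also lost when any 1 of the 9 arrays was left out. The probes of this pair share no run over 7 bases either. That of Cox4i1 (mm9, chr8:123197924-123197983, plus strand) is given whole, and that of Cox4i2 (mm9, chr2:152590711-152590770, plus strand) by its first 30 bases.
Cox4i1: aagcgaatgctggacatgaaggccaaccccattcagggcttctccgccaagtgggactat
Cox4i2: ctgagtcctgtctccactcccttctccaat

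In papilloma, genes of smooth muscle cells and pericytes moved with Ndufa4l2 and Cox4i2. Of 11 such markers, 10 rose in papilloma compared with its skin (median log2 difference 1.75), among them Rgs5 by 3.99 and Pdgfrb by 3.23. The log2 of their summed level was 11.9 to 12.2 in papilloma skin, 12.1 to 12.2 in tumor skin, 13.7 to 13.9 in papilloma and 11.8 to 11.9 in tumor. In tumor versus tumor skin, where Ndufa4l2 rose and Cox4i2 differed by -0.43, 4 rose and 1 fell (median 0.24, 7 of 11 positive), with Rgs5 at 2.21 and Pdgfrb at 1.68, and the summed level was lower on both tumor arrays than on both tumor skin arrays. Of 7 endothelial markers, 5 rose in papilloma and 2 in tumor. Of the smooth muscle and pericyte markers, Rgs5, Pdgfrb, Abcc9, Kcnj8, Actg2, Des, Cnn1 and Myh11 were not well above background on all 9 arrays. The part of these cells in the values of Ndufa4l2 and Cox4i2 was not tested.

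**Figure D2:**
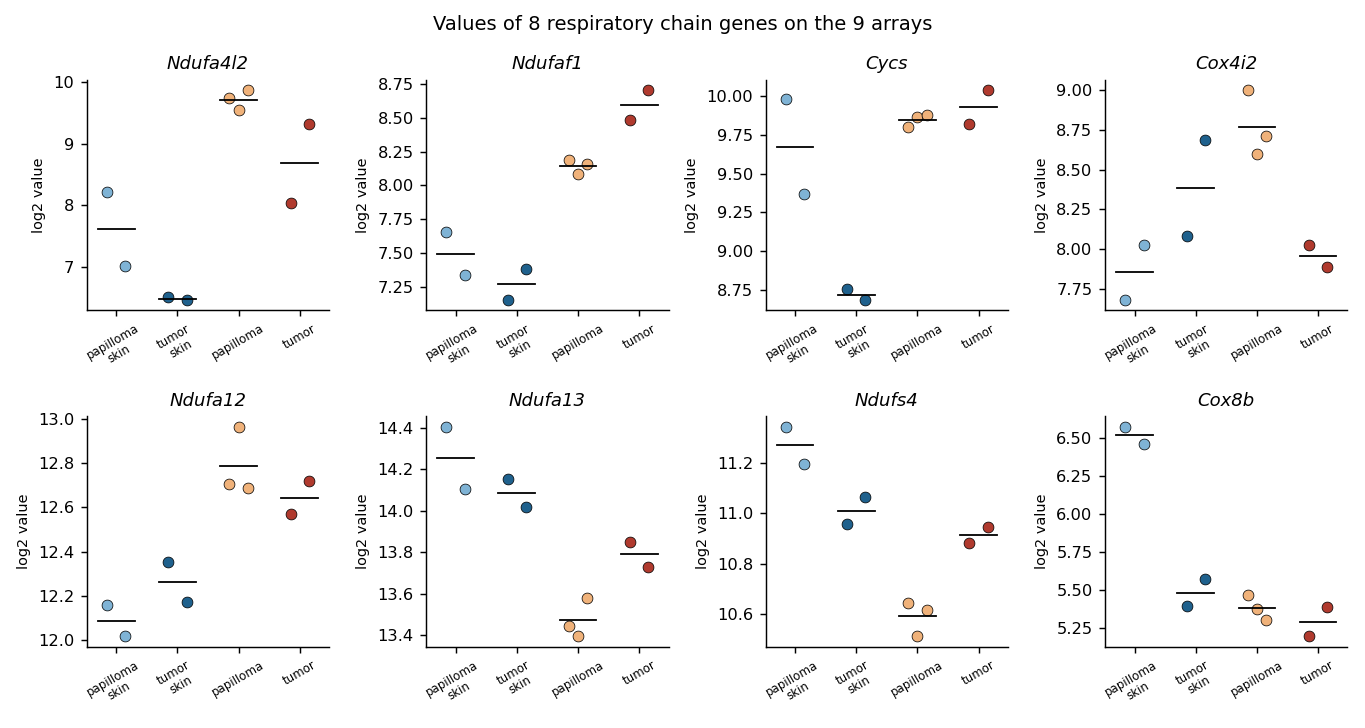
Log2 values (vertical axes, each with its own range) of 8 respiratory chain genes on the 9 arrays, by group; where points are arrays and lines are group means. Ndufa4l2, Ndufaf1 and Ndufa12 lie higher on every lesion array than on the skin arrays of the same stage, Cycs sits between 8.69 and 8.75 in tumor skin and at 9.37 or above elsewhere, and Cox8b is at 6.46 or above in papilloma skin and at 5.57 or below elsewhere.

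Cytochrome c, encoded by Cycs, carries electrons between complexes III and IV and starts the apoptosome when it leaves the mitochondrion. Its log2 values were 9.98 and 9.37 in papilloma skin, 8.75 and 8.69 in tumor skin, 9.80, 9.86 and 9.88 in papilloma and 9.82 and 10.04 in tumor. Tumor skin stood below all other arrays. Cycs was 2.31-fold higher in tumor than in tumor skin (log2 difference 1.21 ± 0.20, SE, limma adjusted p = 0.010), and 1.32 without papilloma skin 1 and tumor 1 (limma adjusted p = 0.019). The papilloma difference was 0.17 ± 0.18 (SE, limma adjusted p = 0.66), and the arrays overlapped. In tumor skin versus papilloma skin it was -0.95 ± 0.20 (SE, limma adjusted p = 0.069). The difference between both lesion effects was not called for Cycs or any other member, as given below.

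The 3 probes of Cycs agreed on the tumor difference, with 1.21, 1.07 and 1.29 on the log2 scale. The probe with 1.07 was well above background on 1 array only, that of tumor 1, and the others on all 9. In papilloma versus papilloma skin the probes did not move alike, with 0.17, -0.04 and 0.45 in the same order. For the probe with 0.45, every papilloma array lay above both papilloma skin arrays. Cyc1, the cytochrome c1 of complex III to which cytochrome c docks, did not pass. It had 11.27 and 10.78 in papilloma skin, 10.73 and 10.63 in tumor skin, 10.76, 10.80 and 10.82 in papilloma and 10.51 and 11.01 in tumor, with a tumor difference of 0.08 ± 0.21 (SE, limma adjusted p = 0.85).

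Assembly factors help to put complex I together. The 4 factors of the list had a median log2 difference of 0.61 in tumor versus tumor skin and 0.33 for papilloma, where the 36 subunits had 0.05 and -0.25, and all 4 had a positive difference in both. The 25 assembly factors outside the gene name rule had medians of 0.25 in tumor (17 positive) and -0.02 in papilloma (10 positive). Of the 4, Ndufaf1, which helps to build the membrane arm of complex I, was the one that passed. Its values were 7.66 and 7.33 in papilloma skin, 7.15 and 7.38 in tumor skin, 8.19, 8.08 and 8.16 in papilloma and 8.48 and 8.70 in tumor. All 5 lesion arrays were above all 4 skin arrays. It was 2.51-fold higher in tumor (log2 difference 1.33 ± 0.16, SE, limma adjusted p = 0.0038) and 1.57-fold higher in papilloma (0.65 ± 0.15, SE, limma adjusted p = 0.039). Without papilloma skin 1 and tumor 1, these were 1.44 (limma adjusted p = 0.020) and 0.81 (limma adjusted p = 0.067). Its tumor difference passed with any 1 of the 9 arrays left out.

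Ndufaf2, which binds a late assembly stage of complex I, had 7.61 and 6.78 in papilloma skin, 6.43 and 6.76 in tumor skin, 7.94, 7.65 and 7.76 in papilloma and 7.31 and 8.04 in tumor. The arrays of lesion and skin did not overlap at either stage. Its differences of 1.08 ± 0.32 and 0.59 ± 0.29 did not pass with 9 arrays (SE, limma adjusted p = 0.069 and 0.29). The tumor difference passed without papilloma skin 1 and tumor 1. Ndufaf3 differed by 0.10 and 0.03, and Ndufaf4 by 0.14 and 0.08.

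Among the 36 subunits of complex I, none passed in tumor versus tumor skin, where the differences ran from -0.67 to 0.65. For papilloma, Ndufa12 rose and Ndufa13, Ndufs4, Ndufb7 and Ndufa6 fell, all of them accessory subunits around the catalytic core. Ndufa13, also known as GRIM-19, had 14.40 and 14.10 in papilloma skin, 14.15 and 14.02 in tumor skin, 13.44, 13.39 and 13.58 in papilloma and 13.85 and 13.73 in tumor. It stood lower in both lesions than in any skin array, and fell by 0.78 ± 0.14 in papilloma (log2, SE, limma adjusted p = 0.015).

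Ndufs4 had 11.34 and 11.20 in papilloma skin, 10.96 and 11.06 in tumor skin, 10.64, 10.51 and 10.62 in papilloma and 10.88 and 10.94 in tumor, so papilloma was lowest. It fell by 0.68 ± 0.12 in papilloma (log2, SE, limma adjusted p = 0.013) and differed by -0.10 in tumor (limma adjusted p = 0.68). Ndufa12 took the opposite course, with 12.16 and 12.02 in papilloma skin, 12.35 and 12.17 in tumor skin, 12.70, 12.96 and 12.69 in papilloma and 12.57 and 12.72 in tumor, a rise of 0.70 ± 0.14 in papilloma (log2, SE, limma adjusted p = 0.024). Ndufb7 and Ndufa6 fell by 0.66 and 0.58 (limma adjusted p = 0.039 and 0.041). The values of Ndufs4 and Ndufa6 come from probes in mm9 at chr13:115078980-115079039 and chr15:82181444-82181503, both on the minus strand, given whole since both falls rest on 1 probe each.
Ndufs4: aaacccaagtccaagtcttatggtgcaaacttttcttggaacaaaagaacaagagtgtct
Ndufa6: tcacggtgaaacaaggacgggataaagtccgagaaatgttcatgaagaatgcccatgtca

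None of these 5 calls held without papilloma skin 1 and tumor 1. The differences were then 0.77 for Ndufa12, -0.63 for Ndufa13, -0.60 for Ndufs4, -0.53 for Ndufb7 and -0.48 for Ndufa6, with limma adjusted p-values of 0.098 to 0.22. Their direction could not change, since papilloma and papilloma skin did not overlap for these genes.

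Complex II, which also works in the TCA cycle, showed no gene that passed in any comparison. The catalytic flavoprotein Sdha had 11.40 and 11.28 in papilloma skin, 11.23 and 11.02 in tumor skin, 11.21, 11.37 and 11.44 in papilloma and 11.58 and 11.42 in tumor. Its tumor difference was 0.38 ± 0.15 (SE, limma adjusted p = 0.14). The iron-sulfur subunit Sdhb differed by -0.12 in tumor and -0.49 in papilloma, the membrane anchors Sdhc by 0.47 and 0.14 and Sdhd by -0.15 and -0.31.

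No gene of complex III passed either. Its 9 genes ran from -0.37 to 0.63 for tumor and from -0.58 to 0.25 for papilloma, each against its own skin. Uqcrh, the hinge protein next to cytochrome c1 and the member of this complex with the highest mean value, had 13.01 and 12.89 in papilloma skin, 12.98 and 13.15 in tumor skin, 12.93, 12.70 and 12.87 in papilloma and 13.06 and 12.98 in tumor. These values overlapped in both lesion comparisons.

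In complex V, the ATP synthase, 14 of 15 genes were lower in papilloma than in papilloma skin (median -0.30), and 2 passed. Atp5c1, the rotating gamma subunit, had 11.93 and 11.54 in papilloma skin, 11.18 and 11.35 in tumor skin, 11.10, 10.81 and 11.15 in papilloma and 10.97 and 11.04 in tumor, and fell by 0.72 ± 0.17 (log2, SE, limma adjusted p = 0.041). Atp5f1, the stalk subunit that the reference table names Atp5pb, had 11.52 and 11.36 in papilloma skin, 11.44 and 11.49 in tumor skin, 10.92, 10.84 and 10.92 in papilloma and 11.30 and 11.10 in tumor, and fell by 0.54 ± 0.12 (log2, SE, limma adjusted p = 0.037). Papilloma lay below papilloma skin on every array for both. Without papilloma skin 1 and tumor 1, the differences were -0.52 and -0.46 (limma adjusted p = 0.23 and 0.16), and 6 of 15 genes of the complex were then higher in papilloma (median -0.09). The catalytic beta subunit Atp5b differed by -0.10 in tumor and -0.30 in papilloma and passed in neither. Of the 15 genes, 12 were also lower in tumor skin than in papilloma skin (median -0.24).

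The muscle isoforms of complex IV include a gene that fell and a gene with a wide spread. Cox8b is the form of subunit 8 in rodent heart, skeletal muscle and brown fat, in place of the general form Cox8a. It had 6.57 and 6.46 in papilloma skin, 5.39 and 5.57 in tumor skin, 5.47, 5.37 and 5.30 in papilloma and 5.19 and 5.38 in tumor. Papilloma skin stood above all other groups. The probe was well above background on both papilloma skin arrays and on no papilloma array. On papilloma skin 1, 95.0% of all probes were well above background, and on papilloma skin 2, 49.9% were. Papilloma skin was 2.20-fold higher as measured (limma adjusted p = 0.0023). This call passed with slide as a term (limma adjusted p = 0.033), and the log2 difference was -1.08 without papilloma skin 1 and tumor 1. It did not pass from the scanner signals after removal of the slide effect (log2 difference -1.38, limma adjusted p = 0.21). Over the alternatives, the difference ran from -2.83 to -0.35.

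Tumor skin also had lower values than papilloma skin for Cox8b (log2 difference -1.04 ± 0.14, SE, limma adjusted p = 0.035), but the probe was well above background on 1 of 2 tumor skin arrays only, tumor skin 1 with its compressed range. This call was lost without papilloma skin 1 and tumor 1 (limma adjusted p = 0.26). Both comparisons share the papilloma skin arrays. Its probe lies in mm9 at chr7:148084852-148084911 on the minus strand, and its first 30 bases are shown since the result rests on this one.
Cox8b: ctataaaaagagctccgcagcatgaagttg

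Skeletal muscle genes moved with Cox8b. Of 14 markers, 10 fell in papilloma compared with its skin and none rose (median -1.18), and Tnnc2, a troponin of fast fibers, fell by 3.24. The log2 of their summed level was 12.2 to 12.6 in papilloma skin, 11.4 to 11.7 in tumor skin, 10.73 to 11.03 in papilloma and 10.9 in both tumor arrays. Of the 14, 4 fell and none rose without papilloma skin 1 and tumor 1 (median -1.03). Of these markers, Ckm, Mylpf, Myh1, Myh2, Myh4, Actn3, Mb, Casq1 and Atp2a1 were not well above background on all 9 arrays. Their part in the Cox8b values was not tested.

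Cox6a2, the muscle form of subunit 6a, had 8.02 and 6.69 in papilloma skin, 7.06 and 6.89 in tumor skin, 7.99, 6.81 and 10.01 in papilloma and 6.25 and 5.18 in tumor. Papilloma 3 stood 2.02 above the next papilloma array, and no comparison passed (limma adjusted p of 0.22 to 0.83 over the 4 pairs of groups). Cox7a1, the muscle form of subunit 7a, had 8.15 and 7.65 in papilloma skin, 7.09 and 7.41 in tumor skin, 7.29, 6.98 and 7.06 in papilloma and 6.88 and 7.27 in tumor. Its papilloma difference of -0.79 ± 0.21 did not pass (SE, limma adjusted p = 0.058).

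Of the general forms named here, Cox4i1 alone passed. Cox6a1, the complex IV gene with the highest mean value, differed by 0.29 in tumor and -0.01 in papilloma, Cox8a by -0.15 and 0.28, and Cox7a2 by 0.27 and -0.07. Cox7a2l, which helps to join complexes III and IV, differed by -0.62 and -0.47 (limma adjusted p = 0.073 and 0.15). Its 3 probes differed by -0.23, -0.31 and -0.62 in tumor and by -0.46, -0.42 and -0.47 in papilloma. Cox6b1 differed by 0.24 and -0.05 and the testis form Cox6b2 by -0.02 and 0.09. Cox7b2 and Cox8c, at 4.80 to 5.38 on every array, were well above background on the 3 arrays with a compressed range only.

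When both lesions were compared directly, no member passed in limma, 9 of 92 had an unadjusted p under 0.05 (9.78%, beside 15.2% of all genes), and the median was -0.00. The nearest was Ndufv3, an accessory subunit of complex I, at 0.84 (limma adjusted p = 0.088), with 8.27, 8.54 and 8.42 in papilloma and 9.16 and 9.34 in tumor. Its 3 probes did not move alike, with differences of 0.90, 0.05 and 0.77, and the median over probes fell on different probes on different arrays. For the difference between the effects in tumor and papilloma, no member passed, 11 of 92 had an unadjusted p under 0.05 (11.96%, beside 14.1% of all genes), and 0.118% of all genes passed.

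The median of the whole set in papilloma changed with 1 array. With all arrays, 69 of 92 genes were lower and the median was -0.22, where that of all genes was -0.01. The papilloma skin arrays themselves differed by more, since 82 of 92 genes were higher on papilloma skin 1 than on papilloma skin 2, with a median gap of 0.43 for members and -0.01 for all genes. Without papilloma skin 1 the median difference was -0.00, and without papilloma skin 2 it was -0.44. In tumor versus tumor skin, 48 genes were higher and 44 lower, with a median of 0.02. Between the skin groups, 66 of 92 genes were lower in tumor skin than in papilloma skin, with a median of -0.24.

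**Figure D3:**
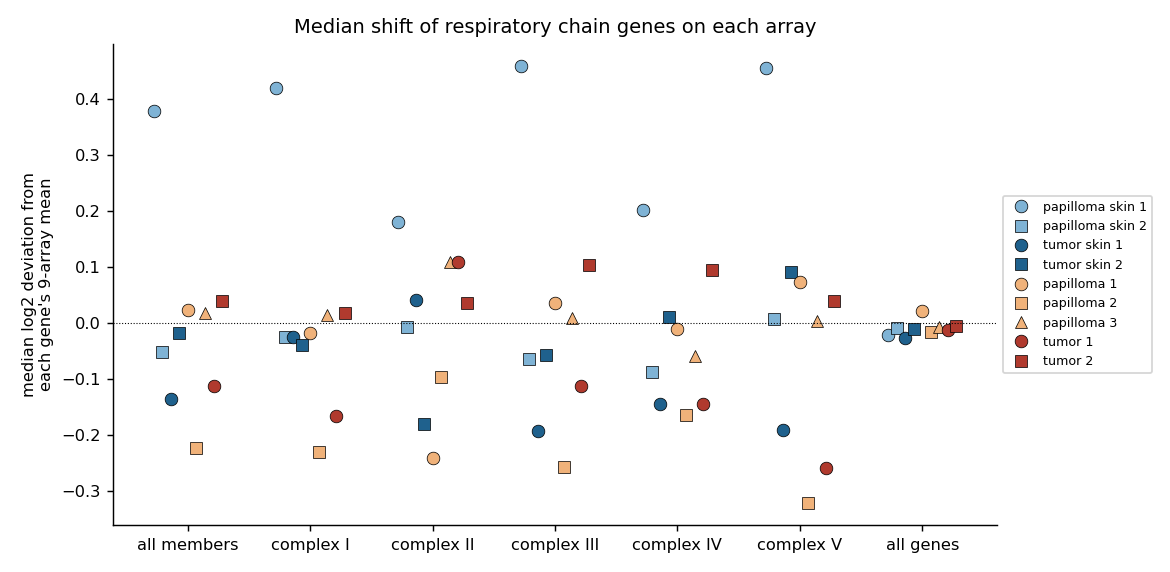
Median deviation of the genes of each complex from each gene's own mean over 9 arrays (vertical axis, log2), for all 92 genes, 5 complexes and all genes on the array (horizontal axis). Each symbol is an array, and papilloma skin 1 is the highest symbol in every respiratory group, at 0.38 for all members, while the symbols of all genes lie within 0.03 of 0.

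The same array was the highest for each of the 5 complexes. Papilloma skin 1 deviated by 0.42 for complex I, 0.18 for complex II, 0.46 for complex III, 0.20 for complex IV and 0.46 for complex V, and papilloma 2 was lowest for complexes I, III, IV and V, at -0.23, -0.26, -0.17 and -0.32. Papilloma skin 1 is one of the columns that did not match their own scanner file.

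**Figure D4:**
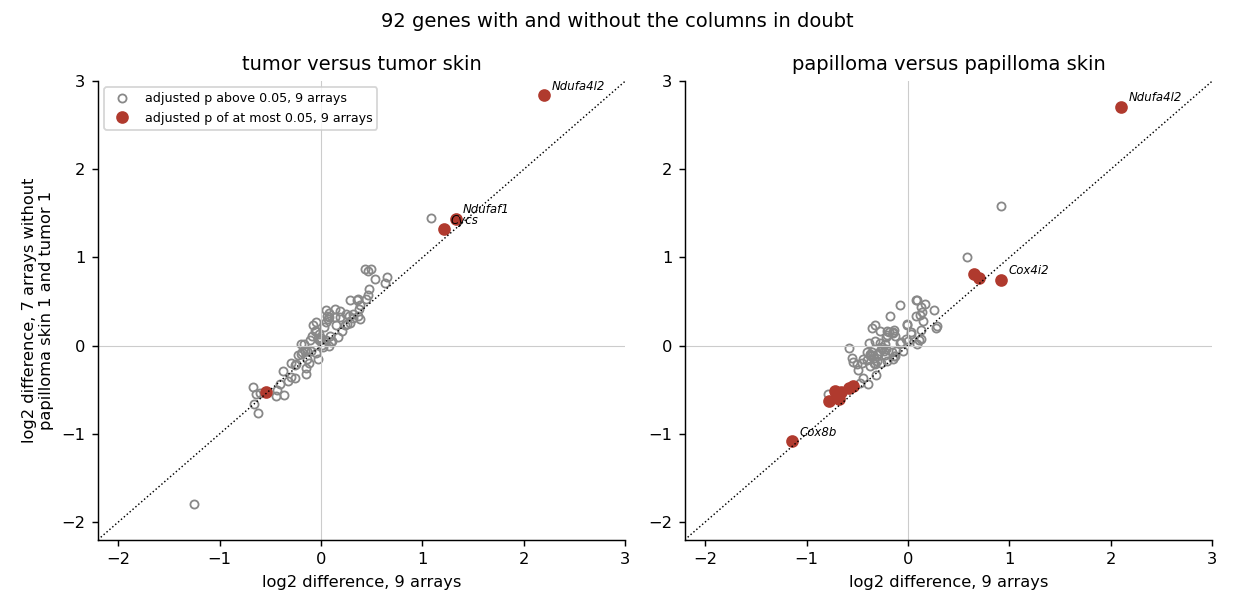
Log2 difference of each of the 92 genes with 9 arrays (horizontal axis) and with 7 arrays, without papilloma skin 1 and tumor 1 (vertical axis), for both lesion comparisons, where the dotted line marks equal values, and red points passed with 9 arrays. In the papilloma panel the median of -0.22 becomes -0.00, Ndufa4l2 goes from 2.11 to 2.71 and Cox8b from -1.14 to -1.08.

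Without both columns, tumor 2 alone stood for tumor and papilloma skin 2 alone for papilloma skin. The log2 differences in tumor versus tumor skin were then 2.84 for Ndufa4l2, 1.44 for Ndufaf1, 1.32 for Cycs and -0.53 for Cox4i1. In papilloma against its skin, they were 2.71 for Ndufa4l2 and -1.08 for Cox8b. With slide as a term in limma, no member passed in tumor versus tumor skin (adjusted p of 0.066 to 0.27 for the 4 genes named for it), where 0.60% of all genes did. Cox8b alone passed for papilloma, beside 889 of all 34797 genes. Within slide 1, the differences in tumor were 1.54 for Ndufa4l2, 1.33 for Ndufaf1, 1.07 for Cycs and -0.48 for Cox4i1. Within slides 1 and 2, Ndufa4l2 differed by 1.53 and 2.53 and Ndufs4 by -0.70 and -0.68 in papilloma, as far as papilloma 2 can be placed on slide 2. The arrays of lesion and skin did not overlap for any called gene. The sign of these differences within slides was therefore fixed in advance, and only their size is given here.

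The same tests started from the scanner signals gave fewer calls. When these were quantile normalized and the slide effect was then taken out, no member passed in tumor versus tumor skin, where 32 of all 34566 genes did. Ndufa4l2 (log2 difference 3.42, limma adjusted p = 0.018) and Ndufaf2 passed in papilloma versus papilloma skin, where 1408 of all genes did. The tumor differences were then 1.45 for Ndufa4l2, 0.91 for Ndufaf1, 0.85 for Cycs and -0.41 for Cox4i1 (limma adjusted p of 0.37 to 0.66).

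Other genes of mitochondrial function were counted from lists. The 13 subunits that the mitochondrial genome itself encodes, core parts of complexes I, III, IV and V, had no gene that passed. All 13 were lower in papilloma than in papilloma skin, at a median of -0.76 that was -0.50 without papilloma skin 1 and tumor 1, and 11 of 13 were lower in tumor than in tumor skin (median -0.33, and -0.06 without both columns). COX3 had 16.40 and 15.37 in papilloma skin, 14.59 and 14.99 in tumor skin, 15.03, 14.35 and 14.99 in papilloma and 14.61 and 15.19 in tumor, and differed by -1.10 in papilloma (limma adjusted p = 0.11). All 13 were also lower in tumor skin than in papilloma skin, at a median of -0.78 that was -0.46 without both columns. Papilloma skin thus stood above tumor skin as well as papilloma for these genes. As for the nuclear genes, papilloma skin 1 was the highest array.

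Genes linked to the control of respiration under hypoxia gave the most calls of these lists. Of 12, 7 rose and 1 fell in tumor (median 1.11), and 6 rose and 1 fell in papilloma (median 0.86). Pdk1, which holds back the entry of pyruvate into the TCA cycle, had 6.68 and 6.49 in papilloma skin, 6.55 and 6.70 in tumor skin, 8.14, 8.10 and 8.22 in papilloma and 8.41 and 8.57 in tumor, with no overlap between skin and lesion. It rose by 1.86 in tumor (limma adjusted p = 0.00064) and 1.57 in papilloma (limma adjusted p = 0.00055). Bnip3 and Bnip3l, receptors for the removal of mitochondria, rose by 2.56 and 0.90 in tumor and by 2.10 and 0.95 in papilloma. The oxygen sensor Egln3 rose by 2.68 in tumor and 2.98 in papilloma, Higd1a, a partner of the chain, by 1.32 and 1.24, and Ldha, which makes lactate, by 1.68 and 1.74. The protease Lonp1, known to degrade Cox4i1, rose by 1.90 in tumor and differed by 0.76 in papilloma (limma adjusted p = 0.12). Pdk2 fell by 0.87 in tumor, and Pdk4, not well above background on all 9 arrays, fell by 1.502 in papilloma. Without papilloma skin 1 and tumor 1, 5 rose in tumor and 4 rose and 1 fell in papilloma.

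Markers of other cells moved between the same groups. Of 6 red blood cell genes, 5 rose in tumor (median 2.48) and 3 fell in papilloma (median -1.95), and without papilloma skin 1 and tumor 1 these were 1 and 0. Of 16 keratinocyte genes, 15 were higher in either lesion, with 4 that passed in tumor (median 0.82) and 3 in papilloma (median 0.62). Of 8 eosinophil genes, 4 fell in either lesion and 1, Siglec5, rose in tumor. The part of these cells in the values of the respiratory chain and of the other lists was not tested.

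Among 17 carriers, porins and uncoupling genes, 2 rose and 2 fell in tumor and none passed in papilloma. Vdac1, the pore of the outer membrane, rose by 1.59, the import receptor Tomm20 by 1.12, and the uncoupling proteins Ucp2 and Ucp3 fell by 1.19 and 0.58. Of 25 assembly factors outside the gene name rule, Sdhaf1, Sdhaf2 and Tmem70 rose and Bcs1l fell in tumor, and Sdhaf1 rose in papilloma, by 0.65. Of 20 genes of the TCA cycle and pyruvate entry, Mdh2 rose in tumor, by 0.90, and Brp44, a pyruvate carrier subunit, fell in papilloma, by 0.65. Of 16 regulators of mitochondrial biogenesis, Gabpa and Tfb2m rose in tumor, by 0.74 and 1.08. Ppargc1a, not well above background on all 9 arrays, fell in papilloma, by 0.59. Without both columns, none of these assembly, TCA cycle and biogenesis genes passed.

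Antioxidant enzymes moved both ways. Of 10, Sod2, the superoxide dismutase of the matrix, rose by 0.98 and Txn2 by 0.68 in tumor, where Gpx1 fell by 1.32 and Cat by 0.78. In papilloma, Gpx1 fell by 1.22, Gpx4 by 0.86 and Cat by 0.82. When papilloma skin 1 and tumor 1 were left out, Sod2 and Gpx1 passed in tumor and Gpx1 alone in papilloma, so that the calls of Cat, Txn2 and Gpx4 were lost.

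**Figure D5:**
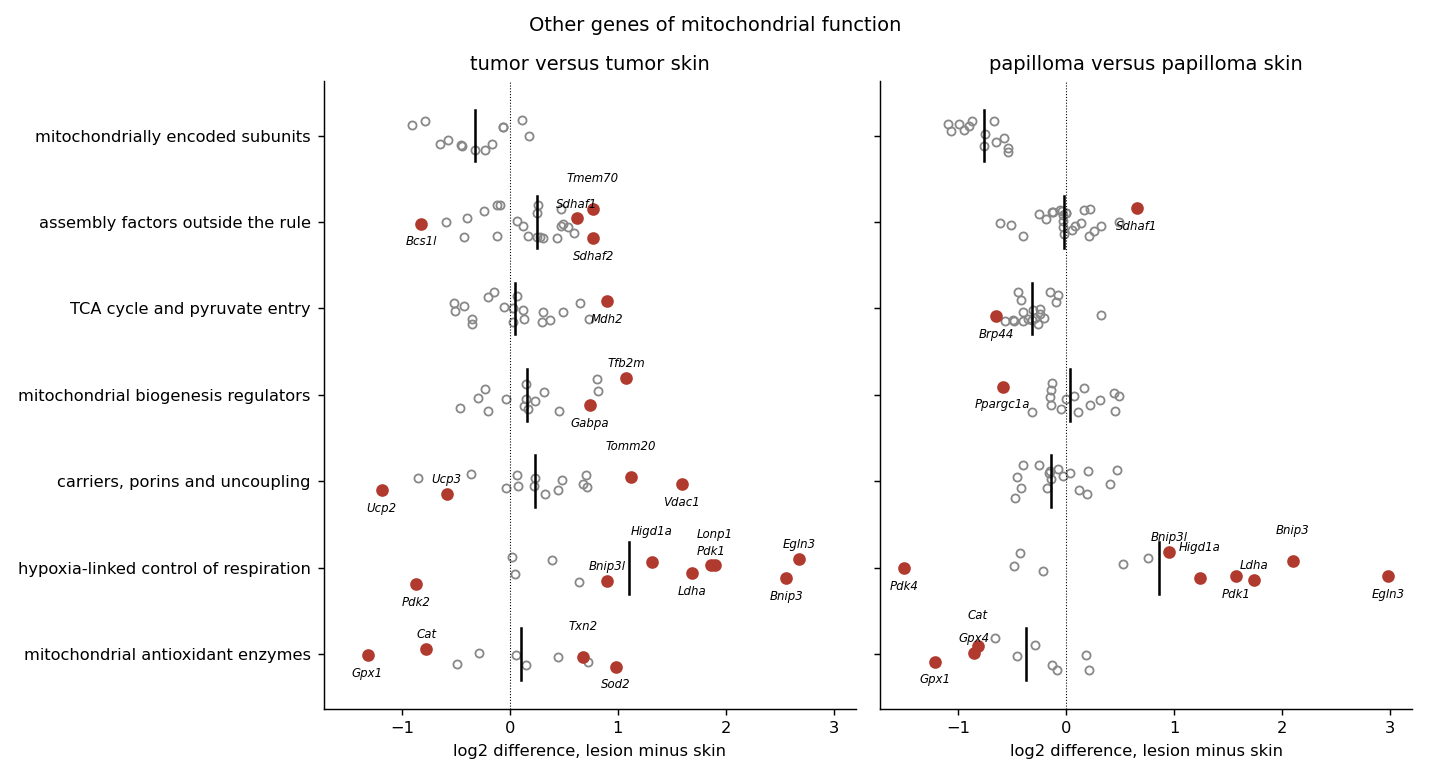
Log2 difference between lesion and skin (horizontal axis) for the genes of 7 lists of mitochondrial function (vertical axis), for tumor versus tumor skin on the left and papilloma versus papilloma skin on the right. Red points had an adjusted p of at most 0.05 in limma and are named, open points did not, and black bars are medians. The hypoxia list lies highest, at medians of 1.11 and 0.86.

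Promoters of the respiratory genes were searched for the cores of both factors classically tied to them. RefSeq promoter windows (GRCm38.p6, 250 bases before to 50 after the gene start) were at hand for 75 of the 92 genes. The NRF1 core (GCGC, any base and TGCGC), on either strand, was found in 18 of them (24.0%) and in 5.19% of all 27025 genes with a window, and the ETS core ACTTCCGG in 5 (6.67%) and in 4.31%. The cores do not overlap by their letters. Of the genes called in a comparison, Atp5c1 and Ndufa6 held the NRF1 core. The part before the start is shown for Cox6a1 (chr5:115348959-115349208), Sdhd (chr9:50603850-50604099) and Uqcrh (chr4:116075071-116075320), all on the minus strand and each the gene with the highest mean value of its complex, with the cores in capitals.
Cox6a1: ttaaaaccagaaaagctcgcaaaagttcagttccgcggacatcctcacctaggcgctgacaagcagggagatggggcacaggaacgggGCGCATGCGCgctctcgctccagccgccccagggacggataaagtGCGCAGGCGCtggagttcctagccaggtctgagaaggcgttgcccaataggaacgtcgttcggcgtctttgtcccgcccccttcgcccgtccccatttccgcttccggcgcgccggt
Sdhd: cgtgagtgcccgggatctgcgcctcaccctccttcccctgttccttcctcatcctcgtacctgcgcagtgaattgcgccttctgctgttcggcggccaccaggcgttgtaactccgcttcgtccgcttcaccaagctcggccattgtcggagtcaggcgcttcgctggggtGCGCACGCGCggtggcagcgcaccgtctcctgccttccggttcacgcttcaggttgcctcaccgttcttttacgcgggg
Uqcrh: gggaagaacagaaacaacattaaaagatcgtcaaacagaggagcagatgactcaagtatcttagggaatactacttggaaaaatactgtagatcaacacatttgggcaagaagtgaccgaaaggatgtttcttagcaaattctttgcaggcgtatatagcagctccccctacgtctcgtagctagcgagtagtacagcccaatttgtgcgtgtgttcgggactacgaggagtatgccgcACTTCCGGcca
Cox6a1 holds 2 NRF1 cores, whose first bases are at positions -162 and -117 from the start, Sdhd 1 at -79 and Uqcrh an ETS core at -11.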

How the data were processed

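Neutrophil RNA was hybridized to 9 Agilent one-color mouse arrays in 4 groups. The authors deposited scanner output with a background-subtracted fluorescence intensity per spot (coordinates on mm9 per the file headers) and a value table on a log2 scale. The methods name quantile normalization, limma and ComBat, without stating which steps the table holds. The log2 table that the authors deposited was used as given, with the median over the probes of a gene, and tested with limma 3.58.1 (R 4.3.3) with 4 group means, 5 residual degrees of freedom and Benjamini-Hochberg adjustment over 34797 genes. If the table already holds a slide correction, 5 degrees of freedom are too many and the p-values may be too small. The limma fit was tested on simulated data.

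Intensity values served for the check of columns, for detection and for alternatives, in which limma's removeBatchEffect stood in for ComBat. For a probe dim in a whole group, the fold is a bound against, per array, the higher of the probe's own value and the lowest value of any probe well above background. For Cox8b, the one case, the probe's own value was the higher, so the bound equals the measured fold, and the fold is given as measured. Arrays were the replicates, and their number limits the precision. There were 16 alternatives, the study's threshold among them, besides leaving out each array.

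The members, gene lists and markers were chosen with earlier results of these data known. Named are up to 8 called members per direction and comparison, members past the study's threshold, the brightest gene of each complex, isoform pairs, Cycs, Cyc1 and the Sdh genes, and up to 6 called genes per list. Gene names are those on the array, and all 92 members were matched to the reference by accession. Tables were handled in pandas 2.3.3 and numpy 2.4.6 under Python 3.11.15, with plots from matplotlib 3.10.9.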

Additional observations from a re-analysis of the deposited data

How the results depend on the processing

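With 2 or 3 arrays per group, the counts of called genes were small and depended on the fit. In tumor versus tumor skin (4 called), every fit of all 9 arrays from the scanner signals and the fit with slide as a term called 0. Of all genes, the scanner fit after removal of the slide effect called 32 of 34566 (0.093%) and the other scanner fits 0. Slide as a term called 209 of 34797 (0.60%), so these fits called few genes of any kind. In papilloma versus papilloma skin (11 called), the scanner fits of all 9 arrays called 2 after removal of the slide effect and otherwise 0. Slide as a term called 1, and the threshold of the study 1. Of all genes, these fits called 1408 of 34566, 0, 889 of 34797 and 1251 of 34797. In tumor skin versus papilloma skin (1 called), the scanner fits of all 9 arrays, slide as a term, the filter on a mean of at least 6, array weights and the threshold of the study called 0. Of all genes, the scanner fits and slide as a term called 0, and the filter 39 of 18817. Array weights called 21 and the threshold 131 of 34797. In tumor versus papilloma, array weights called 1, Ndufv3, beside 717 of all 34797 genes. Leaving out each array in turn gave 1 to 6 calls in tumor versus tumor skin, 1 to 7 in papilloma versus papilloma skin and 0 in the other comparisons. Of the 11 calls in papilloma, Cox8b passed in all 9 of these fits, Ndufa13 and Ndufs4 in 6, Ndufa4l2 in 5, Ndufa12 in 4, Cox4i2 and Ndufaf1 in 2, and Atp5c1, Atp5f1, Ndufa6 and Ndufb7 in 0. In tumor, Ndufaf1 passed in 9, Cycs in 8 (not without tumor 2), Ndufa4l2 in 6 (not without tumor skin 1, tumor skin 2 or tumor 2) and Cox4i1 in 0. Leaving out an array of papilloma skin, tumor skin or tumor leaves only the other array of that group. Residual degrees of freedom were 5 with all arrays and 3 with slide or replicate in the model.

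Whether the replicate numbers pair the arrays could not be decided. The deviations of arrays with the same number correlated at -0.93 to 0.43. Outside papilloma, the deviations of a group's arrays mirror each other, so pairs of these groups gave the same coefficient under either number. The first array of each group also lay on slide 1, so that number and slide cannot be told apart there. The replicate block called 1 member in tumor versus tumor skin, Ndufaf1, and 0 for papilloma against its skin and for tumor skin against papilloma skin. Of all 34797 genes, it called 624, 462 and 3.

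The median of the members in tumor versus tumor skin was 0.21 in the scanner fits with the slide effect removed or as a term (0.02 with the table), and ranged from -0.09 to 0.12 with 1 array left out. In papilloma versus papilloma skin (-0.22), it was -0.00 without papilloma skin 1 and tumor 1, 0.091 with the 6 scanner arrays of full spike-in slope, and -0.44 to -0.00 with 1 array left out. In tumor skin versus papilloma skin (-0.24), it was -0.023 without both columns, -0.029 after quantile normalization without slide correction, -0.011 after normexp, 0.26 with the 6 arrays, and -0.44 to -0.023 with 1 array left out. For the difference between the lesion effects (0.27), it was -0.20 with the 6 arrays and 0.063 to 0.485 with 1 array left out. In tumor versus papilloma it was -0.07 to 0.09 with 1 array left out. Scaling the scanner signals to the 75th percentile moved the median of all genes to -0.41 in papilloma versus papilloma skin, -0.12 in tumor versus tumor skin and 0.31 in tumor versus papilloma, and that of the members to 0.79 in papilloma versus papilloma skin, -0.35 in tumor versus papilloma, 0.47 in tumor skin versus papilloma skin and -0.84 for the difference between the lesion effects. Under this scaling, 6 papilloma differences turned, to 0.47 for Atp5c1, 0.65 for Atp5f1, 0.64 for Ndufa13, 0.71 for Ndufa6, 0.59 for Ndufb7 and 0.63 for Ndufs4, and after normexp that of Ndufa6 was 0.033. The cause was not tested.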
